A study of Mus musculus with 6 samples.

Results

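Transcription factors that mark the primitive streak, the endoderm and 2 later lineages were examined in *Dicer1*-null mouse ES cells that had received a single miRNA. The genes were *T*, *Mixl1*, *Eomes*, *Gata4*, *Gata6*, *Sox17*, *Foxa2*, *Msc* and *En1*, taken as every array probe whose target name equals one of these symbols. This gave 14 probes for the 9 genes, of 45281 probes for 30774 target names on the array. The cells, of 129/SvEv strain, lacked *Dicer1* and endogenous *Ago2* through Cre excision of floxed alleles and carried a transgene for Ago2-myc under the CAG promoter, and they derived from colonies picked after excision. They were grown without feeders in medium with 15% FCS and 2000 U/ml LIF. The 3 control samples received 300 pmol of cel-239b, a *C. elegans* miRNA, and the 3 experimental samples received 300 pmol of miR-294, each by nucleofection together with 1 µg of the GFP plasmid pEGFP-1. GFP-positive cells were sorted 24 hr after transfection, and total RNA was hybridised to 6 Illumina MouseWG-6 v2.0 arrays. The comparison asks how the lineage factors respond when miR-294 is returned to cells that make no mature miRNAs of their own.

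In the gastrulating embryo, cells that pass through the primitive streak form mesoderm and definitive endoderm, and Nodal and Wnt signals induce the T-box factors T (Brachyury) and Eomes and the homeobox factor Mixl1 in them. Sox17, Foxa2, Gata4 and Gata6 specify endoderm, and Gata4, Gata6 and Sox17 also act in the primitive endoderm, the extraembryonic layer that ES cells can form. Msc (musculin, MyoR) is a basic helix-loop-helix repressor of facial muscle precursors, and En1 is a homeobox factor of the midbrain-hindbrain boundary and the ventral limb ectoderm. Undifferentiated ES cells hold such genes at low levels.

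The miRNA that separates the groups is shown here with others of the same seed (bases 2 to 8, in capitals), as this stretch is thought to select target mRNAs. Of 1679 mature mouse miRNAs in the RefSeq table for GRCm38.p6, 5 had the seed of miR-294-3p, whose locus is chr7:3220691-3220712 (plus strand). The sequences of miR-294-3p and 3 of the other 4 are printed 5′ to 3′, and the remaining one was miR-302b-3p.
miR-294-3p: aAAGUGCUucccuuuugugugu
miR-291a-3p: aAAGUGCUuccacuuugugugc
miR-295-3p: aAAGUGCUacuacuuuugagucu
miR-302d-3p: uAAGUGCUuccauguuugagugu

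Between 30.6% and 32.9% of the probes were detected on an array, where detected means a detection score above 0.99 against the negative controls of that array. The 5 defining ES cell markers *Pou5f1*, *Nanog*, *Sox2*, *Zfp42* and *Esrrb* each had a probe detected on all 6 arrays. The *Dicer1* probes were also detected on all 6 arrays, at deposited signals of 106.1 to 156.1. Where these probes lie relative to the excised part is not known here, so that they do not check the genotype. Of 14 markers of fibroblast feeder cells, 10 had no probe detected on any array, among them *Col1a1*, *Col1a2*, *Col3a1* and *Postn*. The remaining defining feeder marker, *Thy1*, was detected on the 3 miR-294 arrays and on no cel-239b array by 1 probe, and nowhere by its other probe. The summed signal of the 32 feeder probes ranged from 2125.8 to 2410.4 with cel-239b and from 2082.4 to 2260.6 with miR-294. In RNA pooled from sorted cells, more cells that express a gene and more RNA per cell cannot be told apart.

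Only 3 of the 14 probes were detected on all 6 arrays, 1 each for *Eomes*, *Msc* and *En1*. A further 2 probes, for *T* and *En1*, were detected on the 3 miR-294 arrays and on no cel-239b array. The other 9 probes were detected on no array. *Mixl1*, *Gata4*, *Gata6*, *Sox17* and *Foxa2* thus had no probe that measured them well above background. The linear model of limma was fitted to the 14621 probes detected on at least 3 arrays, which included 5 of the 14 probes, for 4 genes. The *T* probe and the dimmer *En1* probe passed this filter only through the miR-294 arrays, so their entry into the test was not independent of a difference.

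**Figure D1:**
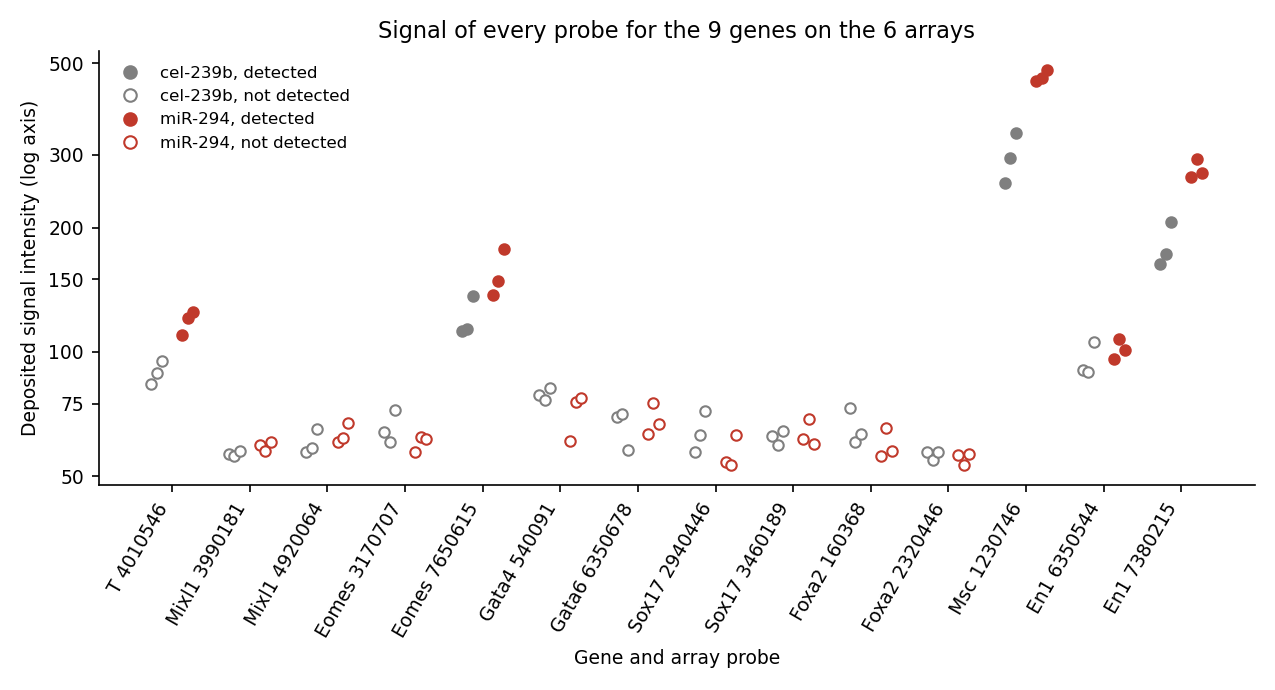
Deposited signal intensity (log axis) of all 14 probes on the 6 arrays, with cel-239b in grey, miR-294 in red, and open points where the probe was not detected on that array. The 9 probes detected nowhere lie between 53.1 and 81.9, while *Msc* lies between 256.0 and 479.8.

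The genes detected in both groups, *Eomes*, *Msc* and *En1*, were upregulated on the miR-294 arrays (adjusted *p*-value below 0.05, limma). *T* also passed this threshold, with the limit on its entry given above. Over all tested probes, 32.3% passed this threshold, 2344 of them higher and 2380 lower, a background against which a handful of chosen genes is to be read. Without miR-294 replicate 1 these counts were 1456 and 1875. At the stricter cut-off of the study, a *B*-statistic above 5, *Msc* passed, as did *T* with the same limit, where 0.677% of all tested probes were higher and 0.793% lower. The study applied this cut-off to signals normalised by its array service, so that it need not be equally strict here. At each of the 3 probes detected on all 6 arrays the lowest normalised miR-294 signal exceeded the highest cel-239b signal, which was so for 24.3% of all tested probes. Groups without overlap in either direction made up 47.9% of them.

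*T* encodes Brachyury, the T-box factor that marks the primitive streak and nascent mesoderm. Its single probe (4010546) had deposited signals of 83.8, 88.9 and 94.8 on cel-239b replicates 1, 2 and 3 and of 109.8, 120.7 and 124.9 on miR-294 replicates 1, 2 and 3. Each miR-294 array thus lay above each cel-239b array before any normalization. The lowest signal of any detected probe was 90.7, 95.9 and 113.6 on the cel-239b arrays and 88.7, 99.2 and 92.7 on the miR-294 arrays. *T* therefore moved from just below to just above the limit of detection. Relative to the median signal of its array, *T* stood at 1.28, 1.33 and 1.31 with cel-239b and at 1.76, 1.76 and 1.86 with miR-294.

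On the normalised log2 scale *T* averaged 5.42 ± 0.08 on the cel-239b arrays and 6.27 ± 0.03 on the miR-294 arrays (SD, n = 3 arrays each, as for all means here). The fitted log2 difference of 0.85 (standard error 0.06, *B*-statistic 5.83, adjusted *p* = 1.8e-04 from limma) is that of the normalised signals, for a probe that entered the test through the miR-294 arrays. Because *T* was not well above background on the cel-239b arrays, the change itself is given only as a bound. Each cel-239b array was set to the lowest normalised signal of a detected probe, or to the signal of *T* where that was higher. On this background-corrected and normalised scale *T* was at least 1.45-fold higher. The bound holds for that scale only, as the deposited signals, which include background, had a ratio of means of 1.33. Among all tested probes, 126 (0.862%) were likewise detected on every miR-294 array and on no cel-239b array, and 95 (0.650%) showed the reverse.

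The fitted difference of *T* varied between processings. Without background correction it was 0.48, and with a variance-stabilizing transformation it was 0.25, with adjusted *p*-values from limma of 1.7e-04 and 8.4e-04. Each value is a mean over 34 to 56 beads. The standard error over beads, which measures precision within an array and not the spread between samples, was between 2.38 and 5.14 signal units.

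**Figure D2:**
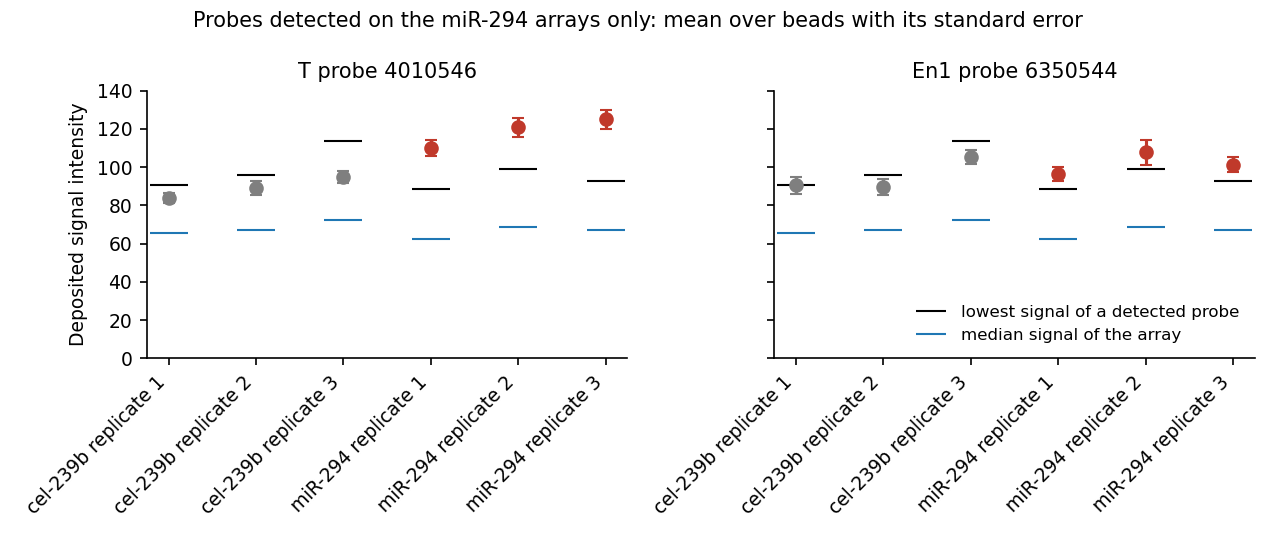
Deposited signal of the *T* probe (left) and the dimmer *En1* probe (right) on each array, with bars for the standard error over beads, a black dash for the lowest signal of any detected probe on that array and a blue dash for the median signal of the array. *T* rises from 83.8 to 94.8 with cel-239b to 109.8 to 124.9 with miR-294, whereas the ranges of the *En1* probe, 89.5 to 105.4 and 96.2 to 107.6, overlap.

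*Eomes*, a T-box factor required for exit from the epiblast and for definitive endoderm and trophoblast, was upregulated by 1 of its 2 probes. The signals of probe 7650615 were 112.1, 113.5 and 136.8 with cel-239b and 137.1, 148.8 and 177.1 with miR-294. On the deposited scale the groups nearly met, at 136.8 and 137.1, and cel-239b replicate 3 and miR-294 replicate 3 were the brightest of their groups. After normalization the log2 signals were 6.16, 6.14 and 6.26 against 6.71, 6.73 and 7.02, with a clear gap. This was a log2 fold change of 0.64 (standard error 0.09, 95% interval 0.42 to 0.85, adjusted *p* = 0.0028 from limma, *B*-statistic 0.77). Without miR-294 replicate 3, the highest array, it was 0.54 (adjusted *p* = 0.0049 from limma). The variance-stabilizing transformation reduced it to 0.26 (adjusted *p* = 0.0025 from limma).

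The other *Eomes* probe (3170707) was detected on no array, with signals of 60.5 to 72.3 with cel-239b and 57.1 to 62.1 with miR-294. Nothing can be read from it about a change, as these signals lie within those of undetected probes. *Mixl1*, a paired-like homeobox factor of the streak, was likewise at background by both probes. Its signals were 55.9 to 57.6 and 57.5 to 60.5 at probe 3990181, and 57.4 to 65.0 and 60.5 to 67.2 at probe 4920064, with cel-239b and miR-294 respectively. The detection score of *Mixl1* reached 0.821 at most.

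None of the 4 endoderm factors was detected. The zinc finger factor *Gata4* had signals of 78.5, 76.5 and 81.9 with cel-239b and 61.0, 75.5 and 77.5 with miR-294, and its detection score was 0.803 to 0.964. The groups overlapped. *Gata6*, its relative that acts in primitive endoderm, ranged from 57.8 to 70.9 with cel-239b and from 63.3 to 75.2 with miR-294. The SOX factor *Sox17* ranged from 57.2 to 72.0 and from 53.1 to 68.8 over its 2 probes, and the forkhead factor *Foxa2* from 54.6 to 73.1 and from 53.1 to 65.4. The probes for these genes thus gave no signal above background in either group. This shows neither that the mRNAs were absent nor that their levels were equal, and *Eomes* shows that 1 probe of a gene can be undetected where another is detected.

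For the 9 undetected probes, the difference in mean normalised log2 signal between miR-294 and cel-239b ranged from -0.16 (*Gata4*) to 0.11 (*Mixl1* probe 4920064), with 5 differences above and 4 below 0. All 9 overlapped between the groups, and an exact permutation test (two-sided) gave *p*-values from 0.20 to 1.0, where 3 arrays against 3 allow no value below 0.10. Of all probes below the detection filter, 12.4% did not overlap in either direction. In a limma fit of all probes with no filter, none of the 9 had an adjusted *p*-value below 0.05 (0.33 to 0.97), and none had an unadjusted *p*-value below 0.05 (lowest 0.078). Over all probes 8.62% were called in that fit.

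*Msc* was detected on all 6 arrays and rose with miR-294. Its single probe (1230746) had signals of 256.0, 294.4 and 339.3 with cel-239b and of 452.1, 460.7 and 479.8 with miR-294. The gap between the groups exceeded the range within either. Normalised, *Msc* averaged 7.91 ± 0.10 and 8.76 ± 0.05 (SD) on the log2 scale in the cel-239b and miR-294 groups. The log2 fold change was 0.86 (standard error 0.07, 95% interval 0.70 to 1.02), a 1.81-fold increase (adjusted *p* = 2.5e-04 from limma, *B*-statistic 5.18). Only 0.992% of all tested probes increased more. The variance-stabilizing transformation gave 0.62, the lowest value over the processings tried.

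*En1* had 2 tested probes, of which 1 was detected on all 6 arrays. The brighter probe (7380215) had signals of 163.1, 172.7 and 206.6 with cel-239b and of 265.2, 292.5 and 271.6 with miR-294, with no overlap. Its normalised log2 signal rose from 7.03 ± 0.06 to 7.91 ± 0.11 (SD), a log2 fold change of 0.88 (standard error 0.07, 95% interval 0.71 to 1.05) or 1.84-fold. The adjusted *p*-value was 2.9e-04 from limma, and the *B*-statistic of 4.92 lay just under the cut-off of the study. It was above 5 in 6 of the alternatives, at 5.27 (cyclic loess) to 7.30 (median scaling). The *B*-statistic was below 5 with a replicate block (2.31), with array quality weights (4.72) and with any single array left out (2.87 to 4.73). It was also below 5 with detection required on 1 array only (4.62) and with no detection filter (4.82).

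The dimmer *En1* probe (6350544) had signals of 90.4, 89.5 and 105.4 with cel-239b and of 96.2, 107.6 and 101.2 with miR-294. These overlapped, as cel-239b replicate 3, the array with the highest median signal, was brighter here than 2 of the miR-294 arrays. After normalization the groups separated, at log2 signals of 5.59 ± 0.06 and 5.91 ± 0.08 (SD). They differed by 0.31 (standard error 0.06, adjusted *p* = 0.011 from limma), and as a bound on the same scale as for *T* the probe was at least 1.13-fold higher. The deposited signals had a ratio of means of 1.07. With the variance-stabilizing transformation this call was lost (log2 fold change 0.087, adjusted *p* = 0.11 from limma). The positions of the 2 *En1* probes on the transcript were not known here, and the probes were not compared with each other.

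**Figure D3:**
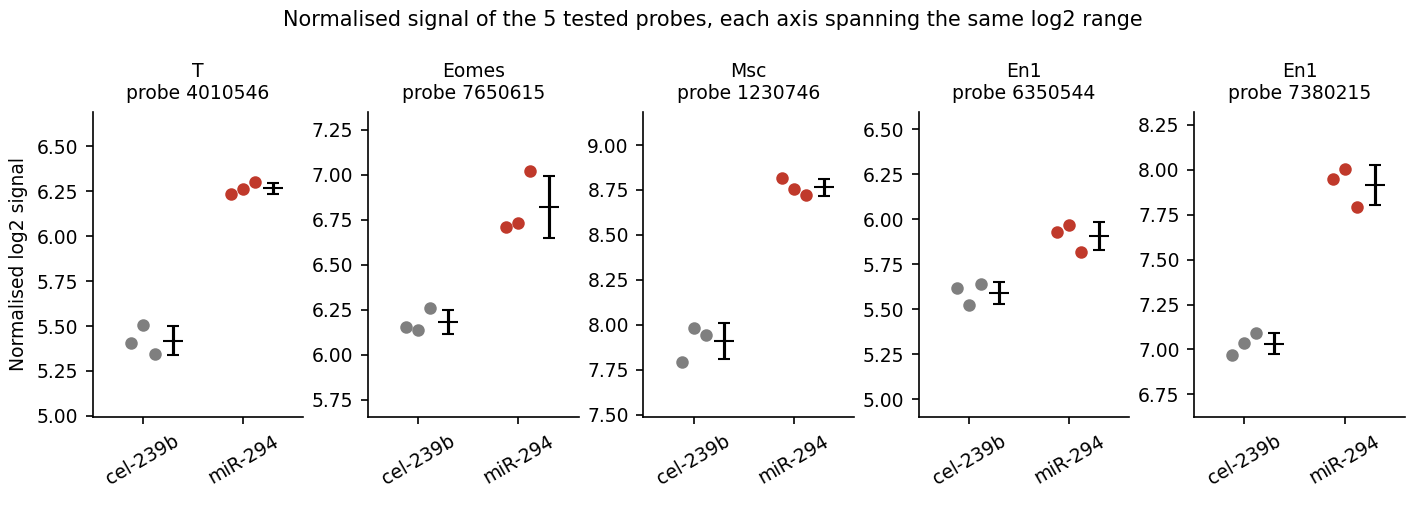
Normalised log2 signal of the 5 tested probes on the 3 cel-239b (grey) and 3 miR-294 (red) arrays, with the mean and SD of each group in black. In every panel the red points lie above the grey points, by a difference in mean normalised log2 signal of 0.31 (*En1* probe 6350544) to 0.88 (*En1* probe 7380215). *T* and *En1* probe 6350544 were undetected with cel-239b.

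Among the probes detected on all 6 arrays, *En1* (probe 7380215) and *Msc* had log2 fold changes of 0.88 and 0.86, with 95% intervals that overlapped nearly throughout. *Eomes* at 0.64 had an interval that overlapped both. Of all tested probes, 0.930% increased more than the brighter *En1* probe and 2.30% more than *Eomes*. *T* is left out of this order because it was not detected with cel-239b. The median over all tested probes was 0.01 for the log2 fold change and 0.17 for its absolute value.

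With each array left out in turn, no tested probe changed sign or lost an adjusted *p*-value below 0.05 where it still passed the detection filter. Without 1 of the miR-294 arrays, whichever it was, the *T* probe and the dimmer *En1* probe no longer passed the filter, and 3 genes remained called. The *B*-statistic of *T* was below 5 with any single cel-239b array left out, at 3.82 to 4.92, and that of *Msc* with any single array left out, at 3.11 to 4.54, so that neither then passed the cut-off of the study. The *B*-statistic of *T* was also below 5 without background correction (4.56), with an offset of 50 (4.92), after the variance-stabilizing transformation (1.48) and with a replicate block (3.07). That of *Msc* was also below 5 with a replicate block (2.42) and with detection required on 1 array only (4.87). With single arrays left out, the log2 fold change of *Msc* lay between 0.80 and 0.89 and that of the brighter *En1* probe between 0.84 and 0.94.

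**Figure D4:**
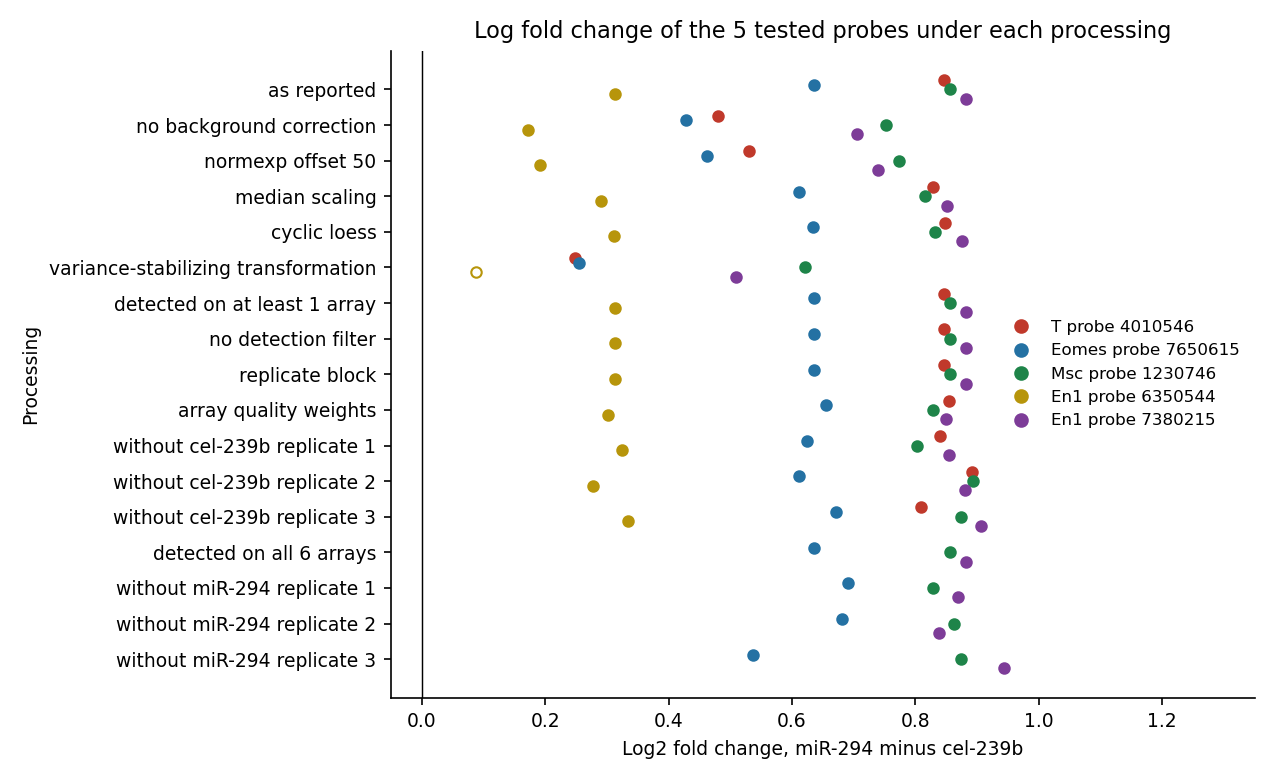
Log2 fold change (miR-294 minus cel-239b) of the 5 tested probes under each processing, with filled points for an adjusted *p*-value below 0.05. All points lie above 0, and the only open point is *En1* probe 6350544 after the variance-stabilizing transformation, at 0.087. Probes that failed the detection filter of a processing are not drawn. For *T* and *En1* probe 6350544, both undetected with cel-239b, the values are differences of normalised signals.

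Wider lists of lineage and signalling genes, drawn up by hand, were counted by gene, where a gene counts as higher or lower if any of its probes passed an adjusted *p*-value of 0.05 from limma. Counted in the same way, 18.1% of the 10613 target names with a tested probe were higher and 19.0% were lower, which is the background for each list. Values are given for the brightest tested probe of a gene, and the lists share some genes. A gene detected in 1 group only entered the test through that group, and its fold is a bound on the normalised scale.

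Among 42 genes of the primitive streak and mesoderm, 41 had a probe on the array, 25 were detected on no array and 15 were tested. Of these 15, 7 had a higher and 2 a lower probe with miR-294, and the median log2 fold change with 1 probe per gene was 0.16. *T* and *Eomes* are among the 7, and without them 5 of 13 were higher and 2 lower, with a median of 0.10. *Fgf17*, an FGF ligand of the *Fgf8* subfamily, rose at both probes, with a mean log2 signal of 10.01 ± 0.11 in the controls and 11.14 ± 0.11 (SD) with miR-294 at the brighter one, a log2 fold change of 1.13 (standard error 0.08). *Gsc*, a homeobox factor of the anterior streak, was detected with miR-294 only and was at least 1.23-fold higher. Like *T*, it is among the 7 through the miR-294 arrays alone. *Wnt3a*, a Wnt ligand that maintains streak and paraxial mesoderm, fell by 0.56 on the log2 scale, and *Osr1*, a zinc finger factor of intermediate mesoderm, by 0.31. With any single miR-294 array left out, the number of higher genes was 4 in place of 7.

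Of 35 endoderm genes, all on the array, 16 were tested, 4 of them higher and 7 lower, with a median log2 fold change of -0.17. None of *Gata4*, *Gata6*, *Sox17* or *Foxa2* was among those tested. *Sox7*, the SOX factor of primitive endoderm closest in family to *Sox17*, was detected on all 6 arrays by 2 probes and rose by 0.73 on the log2 scale at the brighter one (standard error 0.08, adjusted *p* = 0.0011 from limma). *Dab2*, an endocytic adaptor of primitive endoderm, was detected with miR-294 only, by 2 of its 4 probes, and at the brighter one was at least 1.27-fold higher, and the apolipoprotein *Apoa2* rose by 0.72. *Amn*, the partner of cubilin in visceral endoderm, showed the largest decrease of the list, its log2 signal dropping from 8.74 ± 0.15 to 7.21 ± 0.10 (SD), or by a log2 fold change of -1.53 (standard error 0.09, *B*-statistic 7.39). *Otx2*, a homeobox factor of anterior visceral endoderm and forebrain, fell by 0.85, and the keratin *Krt19* by 0.62. The summed signal of the 55 endoderm probes was 36306.3 to 43315.8 with cel-239b and 30872.4 to 34800.8 with miR-294. A single probe, for the hormone precursor *Trh*, made up 42.6% of this sum, so that it describes few of the 55.

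Of 18 genes of branchial arch and skeletal muscle precursors, 12 were detected on no array and 5 were tested, all of which changed. *Msc* and *Mylpf*, a fast skeletal myosin light chain (0.25 on the log2 scale), were higher. The other 3 were lower, among them *Six4*, a homeobox factor of muscle precursors, with a difference in normalised log2 signal of -0.41. Its probe was detected on 3 cel-239b arrays but on only 1 miR-294 array, so that the size of this change is uncertain, and its other probe was detected on no array. *Myf5*, *Myod1* and *Myog*, which drive muscle differentiation, were not among the genes tested.

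Of 32 genes of the midbrain-hindbrain region and neuroectoderm, 20 were detected on no array. Of 12 tested genes, 2 were higher, *En1* and the homeobox gene *Gbx2* (0.26 on the log2 scale), and 4 were lower, with a list median of -0.20. *En2*, the paralogue of *En1* that is also expressed at the midbrain-hindbrain boundary, fell in log2 signal from 7.83 ± 0.03 to 7.40 ± 0.04 (SD), with an adjusted *p*-value of 0.0016 from limma and a log2 fold change of -0.43 (standard error 0.05). *Sox11*, a SOX factor of neural precursors, fell by 0.64, and *Fgf5*, an FGF ligand of the epiblast, was detected with cel-239b only and was at least 1.26-fold lower. The number of higher genes was 1 without cel-239b replicate 3, miR-294 replicate 1 or miR-294 replicate 3.

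As Nodal and Activin induce the streak and endoderm factors, 26 genes of this pathway were also counted. Of 19 tested, 3 were higher and 10 lower, with a median log2 fold change of -0.19. Neither probe of the ligand *Nodal* passed the threshold (0.10 and 0.20 on the log2 scale, adjusted *p* = 0.30 and 0.080 from limma). *Fst*, an antagonist of Activin, rose by 1.38 (standard error 0.10) and the ligand *Gdf1* by 1.08 (standard error 0.05). The type I receptor *Acvr1b* was higher by 0.59 (standard error 0.08) in normalised signal. Its probe was detected on only 1 of the 3 cel-239b arrays, so that the size of this change is uncertain, and its other probes were detected on no array. The receptor *Tgfbr2* fell by 1.98 and the Nodal antagonist *Lefty1* by 1.54 on the log2 scale.

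**Figure D5:**
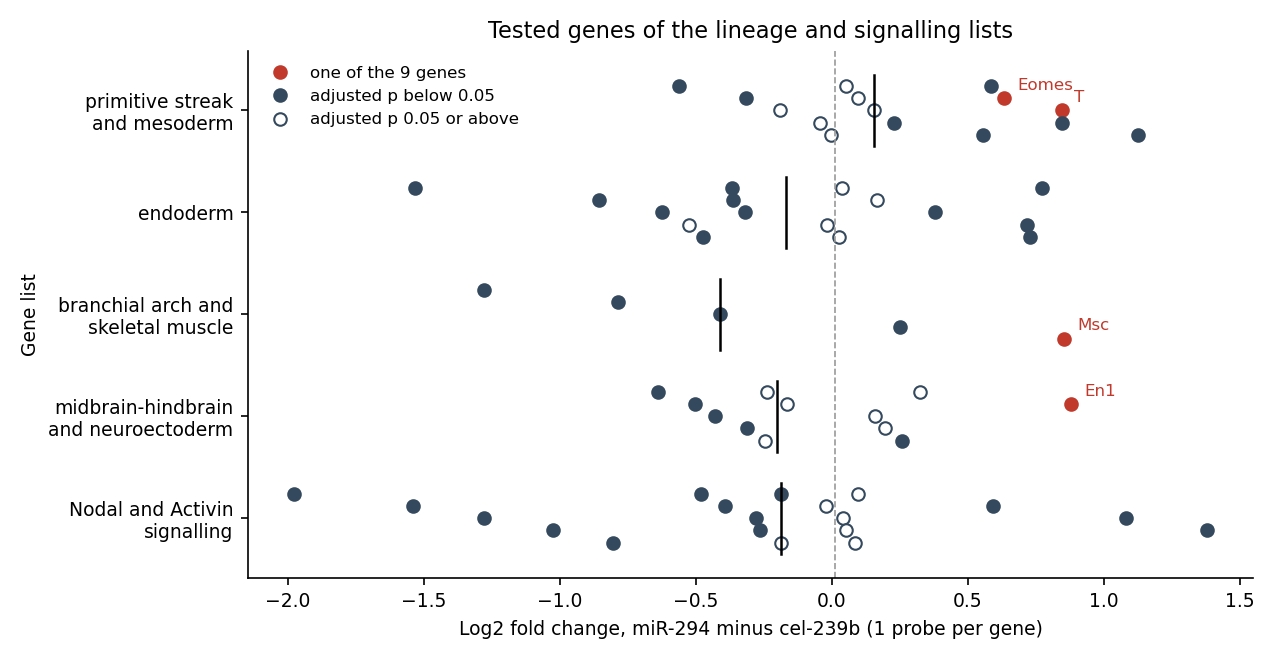
Log2 fold change (miR-294 minus cel-239b) of the tested genes of each list, with 1 probe per gene, filled where the adjusted *p*-value was below 0.05. Red points are *T*, *Eomes*, *Msc* and *En1*, black bars are list medians (0.16, -0.17, -0.41, -0.20 and -0.19 from top to bottom), and the dashed line is the median of all tested probes.

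The genes whose pattern was most like that of *Msc* were taken by Euclidean distance between the centred log2 signals over the 6 arrays. They were *Klk8* (distance 0.079), *Rab38* (0.11) and *Tmem108* (0.14), with differences in normalised log2 signal of 0.83, 0.88 and 0.90. *Tmem108* averaged 5.64 on the cel-239b arrays, where the lowest normalised signal of a detected probe was 5.63, 5.72 and 5.83. It was thus not detected on all of them, and the size of its change is uncertain. The result of the same search for *T* is not reported here, as *T* was not detected on the cel-239b arrays. The arrays are shared by all genes, and a distance over 6 arrays in 2 groups mainly orders probes by the size of the difference.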

How the data were processed

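RNA of 6 samples, 3 per group by their titles, was measured on Illumina arrays. The deposited table, exported from GenomeStudio 1.0.6 without normalization per the file headers, holds the mean intensity over the beads of each probe. Beside it stand the bead SD, the bead number and a deposited detection score (1 minus a *p*-value). For the study's own analysis the array service normalised the data, by a method not given in the sources used here. A further 24 columns were not used. Processing used limma 3.58.1 (R 4.3.3): normexp background from detection *p*-values, an offset of 16, quantile normalization and log2. Probes with a score above 0.99 on at least 3 arrays were fitted with lmFit and eBayes (prior share 0.01, no block), and *p*-values were adjusted by Benjamini-Hochberg over all 14621 probes. Steps were tested on simulated data. The genes, lists and tests were chosen with earlier results of these data known. Named were all 9 genes, up to 3 of the largest increases and decreases per list, and 3 nearest genes for the top pair by *B*-statistic (those of *T* were dropped, as it was undetected with cel-239b); some genes this rule names are not reported here. Genes were matched to the array by symbol or by an older name. The methods state triplicate transfections, and *p*-values measure the spread between these samples. The number of arrays limits the precision. Alternatives were other background, normalization, log scale, filter, threshold, block, weights and left-out arrays; a BeadChip block was not run, as the headers name no chip.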

Additional observations from a re-analysis of the deposited data

How the results depend on the processing

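The direction of the 5 tested probes held under every processing that gave a value, and so did the calls at an adjusted *p*-value below 0.05 (limma), except that of *En1* probe 6350544 after the variance-stabilizing transformation (0.087, adjusted *p* = 0.11); the cause was not tested. The log2 fold change ranged from 0.26 to 0.69 for *Eomes*, 0.62 to 0.89 for *Msc*, and 0.51 to 0.94 for *En1* probe 7380215. For *T*, undetected with cel-239b, the fitted difference of normalised signals ranged from 0.25 to 0.89, and its change remains given only as a bound. With a *B*-statistic above 5 as the threshold, 2 genes were called in place of 4, and both counts include *T*, which entered the test through the miR-294 arrays. Of all tested probes, 0.677% were higher and 0.793% lower at that threshold, and 32.3% passed the adjusted *p*-value. With detection required on all 6 arrays, *T* and *En1* probe 6350544 were not tested and 3 genes were called. Of the 13111 probes in that fit, 2212 were higher and 2223 lower.

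The replicate numbers are shared between the groups. Deviations of same-numbered arrays from their group means correlated at 0.139, -0.0777 and 0.141, and those of differently numbered arrays at -0.204 to 0.0785. With 3 arrays per group these values cannot decide whether same-numbered arrays were paired, and the titles do not say. In a fit with a replicate block, the log2 fold changes were 0.64 for *Eomes*, 0.86 for *Msc* and 0.88 for the brighter *En1* probe. The fitted differences of *T* and the dimmer *En1* probe, both undetected with cel-239b, were 0.85 and 0.31. In this fit 4 genes stayed called (adjusted *p*-values from limma of 0.0027 to 0.032), and neither *T* (3.07) nor *Msc* (2.42) kept a *B*-statistic above 5. Over all tested probes 2111 were higher and 2160 lower, against 2344 and 2380 without the block. Over the other alternatives with the same filter the higher calls ranged from 1568 (median scaling) to 2680, and with single arrays left out from 1456 to 2424.

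When single arrays were left out, the number of higher genes ranged from 4 to 7 in the streak list, 1 to 3 in the neuroectoderm list and 0 to 1 among feeder markers, and of lower genes from 0 to 1 among both ES cell and feeder markers. With detection on all 6 arrays no feeder marker (0) was higher, and after the variance-stabilizing transformation, chosen for the lists after seeing the data, 2 ES cell markers were lower. Weak signals limit *T*, *Eomes*, *En1* probe 6350544 and the undetected genes.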

Other observations

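Markers of other cell types that the cultures could hold are given as values. Of 18 trophoblast markers, a list that includes *Eomes*, 10 were detected on no array, among them *Elf5*, *Gcm1* and *Tpbpa*. Counted by gene as above, of 8 tested 3 were higher and 3 lower with miR-294. *Cdx2*, a homeobox factor of trophoblast and posterior mesoderm, rose by 0.56 on the log2 scale (standard error 0.05, adjusted *p* = 5.7e-04 from limma), and *Tcfap2c* by 0.23. The keratins *Krt18* and *Krt8* fell by 0.98 and 0.74 and the transcription factor *Tead4* by 0.53. The summed signal of the 33 trophoblast probes was 6336.9 to 8074.2 with cel-239b and 5552.5 to 6141.2 with miR-294, of which 1 *Krt8* probe made up 24.3%, and its part in the increase of *Eomes* was not tested.

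Of 18 ES cell markers, 17 were tested, 7 of them higher and 1 lower. *Dppa3* (Stella) was detected with miR-294 only, through which it entered the test, and was at least 1.37-fold higher on the normalised scale. *Tbx3*, a T-box factor that acts in self-renewal, rose by 0.64 and the zinc finger factor *Klf4* by 0.58, while *Tdgf1* (Cripto), a Nodal co-receptor, fell by 0.39. The summed signal of the 33 probes ranged from 140902 to 165873 with cel-239b and from 152667 to 166822 with miR-294. Of 2 feeder markers tested, 1 was higher with miR-294, the surface glycoprotein *Thy1*. Its probe 7040201 was likewise detected with miR-294 only and entered the test through these arrays, and was at least 1.77-fold higher on the background-corrected and normalised scale, for deposited signals of 83.6 to 139.8 over the 6 arrays. The other feeder marker tested did not pass the threshold, and the other *Thy1* probe was detected on no array.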
